A study of Mus musculus with 30 samples.

Results

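Sieved kidney glomeruli of ob/ob mice aged 16 weeks (4 arrays) were compared with those of ob/ob mice aged 8 weeks (4 arrays). The 8 arrays were taken by their titles from 30 in all, and all 24099 genes that passed a filter on low signal were tested. The mice were female BTBR ob/ob, a strain with a leptin defect that grows obese and diabetic, and the comparison follows the kidney as that disease goes on. Female BTBR wild-type mice of 16 weeks (4 arrays) and 8 weeks (4 arrays) carry no ob mutation and give the change over the same weeks without it. The remaining 14 arrays were of both genotypes at 4 and 24 weeks and entered the shared estimate of spread. The labels name no treatment, do not say whether an array held RNA of 1 mouse or of several, and describe the replicates only by number, so p-values measure the spread between these samples. The leptin defect is present in every cell of the animal, so effects on the glomerulus itself and effects of obesity or high glucose cannot be told apart.

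A glomerulus is a tuft of capillaries in which fenestrated endothelium, a basement membrane and podocytes, epithelial cells with interlocking foot processes, together filter the blood, while mesangial cells hold the loops in place. In diabetic kidney disease this unit first enlarges, mesangial matrix accumulates, podocytes are lost and albumin leaks into the urine. BTBR ob/ob mice are used as a model because they develop these lesions.

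Values are log2 signals as deposited, which reach beyond the range of a scanner, so differences are given in log2 units and not as folds. Each difference is the 16-week minus the 8-week mean with its standard error after ±, from limma, with p-values adjusted by the Benjamini-Hochberg method over all genes and 0.05 as the threshold. The median standard error of a difference was 0.14, and the number of arrays limits the precision. Intron control probes, which show background, had array medians of 5.84 to 6.35 in the 8 ob/ob arrays, so genes near that level are compressed. Separation of exon from intron controls averaged 0.847 ± 0.007 (SD, n = 4) at 8 weeks and 0.847 ± 0.019 (SD, n = 4) at 16 weeks (two-sided exact permutation test, p = 1.0, the smallest possible being 0.0286). Between any 2 of the 8 arrays the correlation over genes was 0.985 to 0.996.

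The fractions held glomeruli and tubules together. The podocyte gene Nphs1 (nephrin) measured 10.22, 10.75, 10.74 and 10.20 at 8 weeks and 10.71, 10.33, 10.80 and 12.06 at 16 weeks, while the proximal tubule phosphate carrier Slc34a1 measured 18.79 to 19.43 over the same arrays. Of other defining markers, endothelial Pecam1 and Kdr and mesangial Itga8 were well above the intron controls, T-cell Cd3e (4.73 to 5.19) and adipocyte Adipoq (4.57 to 4.73) were below them. In bulk tissue, fewer cells of a type and less RNA per cell cannot be told apart.

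Between 8 and 16 weeks, 3 of 24099 genes passed the threshold in ob/ob glomeruli, which is 0.0124% of those tested. Apob and Adgrg2 rose (0.0083%) and Arhgap11a fell (0.00415%). At an unadjusted p under 0.05 there were 2049 genes (8.5%), of which 1031 were higher (4.28%) and 1018 lower (4.22%) at 16 weeks, and in 1298 genes (5.39%) the 4 arrays of one age did not overlap the 4 of the other. In wild type, 8 genes passed over the same weeks (0.0332%), 4 higher and 4 lower (0.0166% each), and 1591 had an unadjusted p under 0.05 (6.6%). No gene passed the test of the difference between the genotypes' changes, where limma's smallest adjusted p was 0.298 and 1230 genes (5.1%) had an unadjusted p under 0.05.

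Apob encodes apolipoprotein B, the structural protein of triglyceride-rich and low-density lipoproteins. It measured 11.07, 10.94, 11.39 and 11.86 at 8 weeks and 13.56, 14.41, 14.04 and 13.54 at 16 weeks in ob/ob. Every 16-week array lay above every 8-week array, and the difference of 2.57 ± 0.41 passed (limma, adjusted p = 0.031). In wild type the same gene measured 8.80, 9.18, 8.73 and 7.92 at 8 weeks and 10.98, 10.94, 11.36 and 11.51 at 16 weeks, a rise of 2.54 ± 0.41 (limma, adjusted p = 0.0094). The rise in ob/ob exceeded that in wild type by 0.03 (95% interval -1.16 to 1.22). Across all ages, ob/ob means ran 9.04 ± 0.38 (SD, n = 3) at 4 weeks, 11.32 ± 0.41 (SD, n = 4) at 8, 13.89 ± 0.42 (SD, n = 4) at 16 and 13.61 ± 1.06 (SD, n = 4) at 24 weeks. Wild-type means ran 7.76 ± 0.74 (SD, n = 3), 8.66 ± 0.53, 11.20 ± 0.28 and 11.84 ± 0.68 (SD, n = 4 each), so the wild-type level at 16 weeks stood near that of ob/ob at 8 weeks.

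Arhgap11a, a GTPase-activating protein for RhoA that is made in dividing cells, measured 8.26, 7.81, 8.12 and 8.33 at 8 weeks and 7.31, 7.51, 7.34 and 7.49 at 16 weeks. The ages did not overlap, and the gene fell by 0.72 ± 0.12 (limma, adjusted p = 0.031). Wild-type arrays gave 7.19, 7.21, 7.16 and 7.38 at 8 weeks and 7.24, 7.28, 7.30 and 7.14 at 16 weeks, a difference of 0.01 ± 0.12. Wild type was already low at 8 weeks: its mean was 8.12 ± 0.34 (SD, n = 3) at 4 weeks and 7.23 ± 0.10 (SD, n = 4) at 8 weeks, against 8.32 ± 0.04 (SD, n = 3) and 8.13 ± 0.23 (SD, n = 4) in ob/ob. The difference between the genotypes' changes was -0.72 ± 0.17 (95% interval -1.08 to -0.37, limma, adjusted p = 0.687).

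Adgrg2, an adhesion G protein-coupled receptor, measured 5.56, 5.65, 5.49 and 5.81 at 8 weeks and 6.28, 6.42, 6.48 and 5.93 at 16 weeks, a rise of 0.65 ± 0.11 (limma, adjusted p = 0.031). These values lie at or under the intron controls at 8 weeks and about at them at 16 weeks. Its wild-type mean was 5.52 ± 0.08 at 8 weeks and 5.52 ± 0.10 at 16 weeks (SD, n = 4 each), and the changes differed by 0.66 ± 0.15 (limma, adjusted p = 0.687). At 24 weeks ob/ob was at 6.33 ± 0.23 and wild type at 5.69 ± 0.12 (SD, n = 4 each).

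These calls are close to the threshold. Over the 8 fits that left out 1 ob/ob array, the differences ran from 2.40 to 2.75 for Apob, from 0.58 to 0.76 for Adgrg2 and from -0.82 to -0.65 for Arhgap11a. The adjusted p ran from 0.024 to 0.18 for Apob, from 0.0024 to 0.18 for Adgrg2 and from 0.012 to 0.24 for Arhgap11a. No gene passed without replicate 1 or 3 of either age, and without 16-week replicate 2 the 2 genes that passed were not among these 3. With only the 8 arrays compared in the fit, and with the replicate number as a block, Apob alone of the 3 passed (limma, adjusted p = 0.0498 and 0.032), while Adgrg2 (0.29 and 0.086) and Arhgap11a (0.28 and 0.086) did not. Apob and Adgrg2 passed without 16-week or 8-week replicate 4, and Arhgap11a without 8-week replicate 2.

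**Figure D1:**
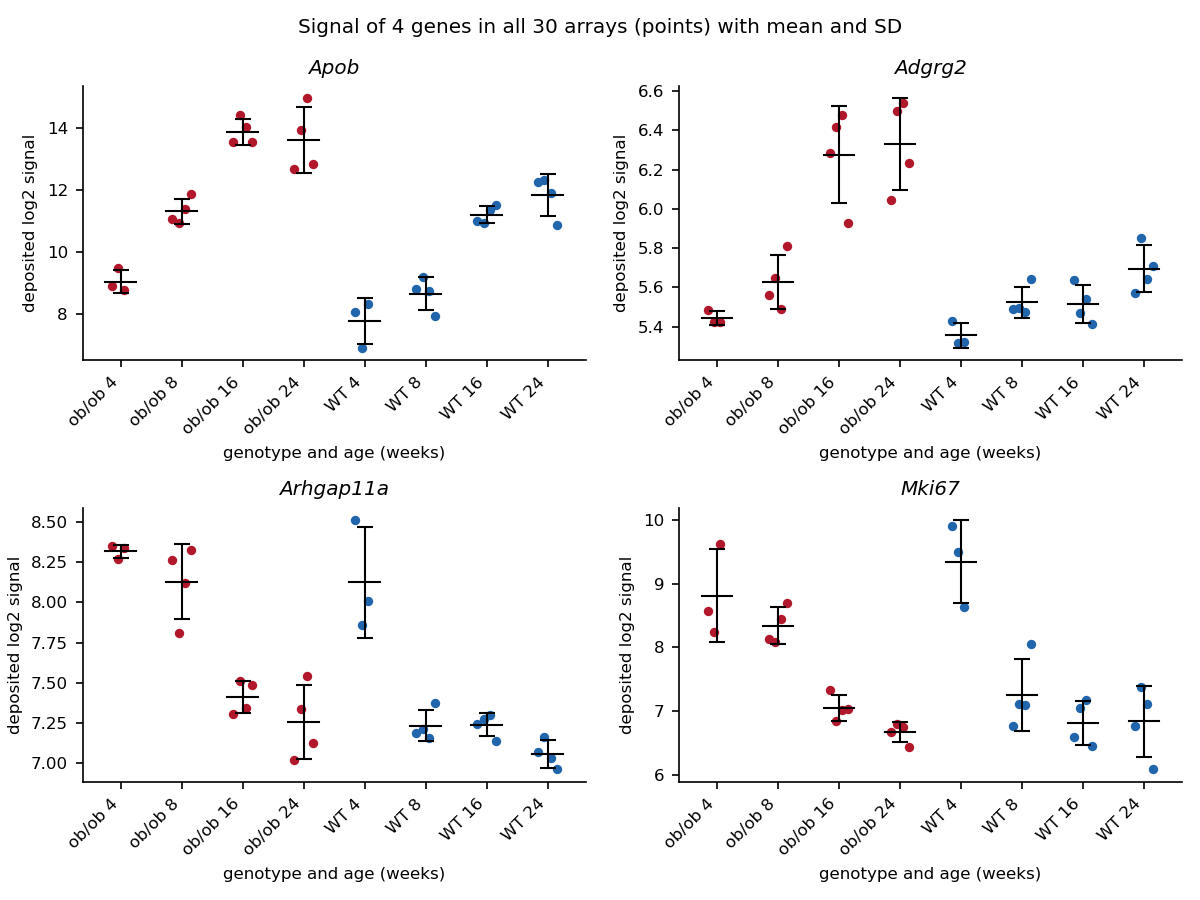
Deposited log2 signal (vertical axis) of Apob, Adgrg2, Arhgap11a and Mki67 by genotype and age in weeks (horizontal axis), 1 point per array, with the mean and SD as bars. Apob steps up between 8 and 16 weeks in both genotypes, Adgrg2 is higher in ob/ob at 16 than at 8 weeks, and Arhgap11a and Mki67 are still high in ob/ob at 8 weeks when wild type is low.

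Behind these 3 genes, those with the smallest p in each direction did not pass, and their values are given as measured. Lctl, a klotho-family protein, measured 7.77, 7.80, 7.93 and 8.14 at 8 weeks and 7.05, 7.46, 7.18 and 6.88 at 16 weeks (-0.77 ± 0.14, limma, adjusted p = 0.0658), with a wild-type difference of 0.01 ± 0.14. Without overlap between the ages, the GABA receptor subunit Gabra3 differed by 1.01 ± 0.20 and the retinal dehydrogenase Aldh1a1 by 2.10 ± 0.43. Aldh1a1 measured 9.17, 8.23, 9.21 and 9.80 at 8 weeks and 10.93, 11.95, 10.94 and 11.00 at 16 weeks, and its wild-type means were 8.35 and 8.90. On the lower side stood the peroxisomal lyase Hacl1 (-1.14 ± 0.23), the phosphatase subunit Ppp2r3a (-0.76 ± 0.15), the cytoskeletal linker Epb41l3 (-0.93 ± 0.21) and Fam13a (-0.97 ± 0.19). Wild type had similar values for Ppp2r3a (-0.61 ± 0.15) and Fam13a (-0.61 ± 0.19), whereas Epb41l3 was at 0.17 ± 0.21. A pair of enzymes of the proximal tubule, Gatm, which makes the creatine precursor, and Oxct1, which uses ketone bodies, differed by -0.76 ± 0.17 and -0.66 ± 0.15, against 0.09 ± 0.17 and 0.05 ± 0.15 in wild type.

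Part of the cell division genes had lower values at 16 weeks. Among 31 cell cycle genes tested, 13 had an unadjusted p under 0.05, all on the lower side (4.22% of all genes), and in 12 every 16-week array lay below every 8-week array (2.71% of all genes did so). None passed after adjustment. The median of the list was -0.12, against 0.00 over all genes, with 25 negative and 6 positive. The signal was low: 18 of the 31 genes at 8 weeks and 22 at 16 weeks had means at or under 6.35, the highest intron control median, and so had 10 of the 12 at 16 weeks. Mki67, the proliferation antigen Ki-67, measured 8.13, 8.08, 8.44 and 8.70 at 8 weeks and 7.33, 6.84, 7.01 and 7.03 at 16 weeks, so all 4 older arrays were low (-1.28 ± 0.30, limma, adjusted p = 0.224). The mitotic kinesin Kif20a measured 6.17, 6.33, 6.41 and 6.52 at 8 weeks and 5.98, 5.86, 5.74 and 5.91 at 16 weeks (-0.48 ± 0.12, limma, adjusted p = 0.238). Its 16-week values are at the level of intron controls. Top2a, the topoisomerase of replicating cells (-0.46), and Rrm2, a subunit of ribonucleotide reductase (-0.40), followed, the pair being chosen after their values were seen. Depdc1a, a mitotic gene outside the list, measured 5.79, 5.90, 5.63 and 5.96, then 5.25, 5.38, 5.35 and 5.26 (-0.51 ± 0.11, limma, adjusted p = 0.147).

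The 12 members without overlap were Mki67, Kif20a, Cenpf, Kif11, Cenpe, Nusap1, Cdc20, Plk1, Ube2c, Ccnb2, Top2a and Rrm2. The mitotic kinases Aurka, Aurkb and Bub1 and the centromere histone gene Cenpa overlapped between the ages, at -0.15 to -0.01 (these 4 were chosen after their values were seen). The replication helicase genes Mcm2, Mcm3, Mcm5 and Mcm6 and the clamp Pcna differed by -0.12 to 0.07. In wild type the list's median was -0.09, with 3 members lower and 1 higher at an unadjusted p under 0.05 (3.04% and 3.56% of all genes). The test between genotypes gave an unadjusted p under 0.05 for 1 of 31 members, Kif20a, on the lower side (2.66% of all genes). Mki67 resembled Arhgap11a over the series: in wild type it averaged 9.35 ± 0.65 at 4 weeks (SD, n = 3), 7.26 ± 0.56 at 8 and 6.82 ± 0.35 at 16 weeks (SD, n = 4 each), and in ob/ob 8.81 ± 0.73 (SD, n = 3), 8.34 ± 0.29 and 7.06 ± 0.20 (SD, n = 4 each). Leaving out any 1 ob/ob array kept 11 to 13 members lower at an unadjusted p under 0.05.

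Many genes of late cell division share a pair of promoter elements, the CCAAT box and the cell cycle homology region (CHR, searched as TTTGAA), which bind the NF-Y and MuvB complexes. Both were searched on both strands in the 250 bases before the start of each gene (RefSeq, GRCm38.p6, first entry of each gene), where 26 of the 31 tested list members had an entry. The CHR letters were in 8 of the 26 (30.8%), against 12.8% of 14331 tested genes with an entry and 16.3% of all 27025 entries. The CCAAT letters were in 20 of the 26 (76.9%), against 35.5% of tested genes and 34.5% of all entries. That share was not particular to division genes: CCAAT was in 13 of 18 lipid and sterol synthesis promoters (72.2%). It was in 6 of 21 oxidative phosphorylation promoters (28.6%). All 8 cell cycle members with the CHR letters also held CCAAT, a pair found in 4.81% of tested genes and 5.73% of all entries. Of 11 cell cycle members with an entry that did not overlap between ages, 6 held both (54.5%) and 10 held CCAAT (90.9%). These 11 were picked by the values of these same arrays from a list of division genes. Their shares are therefore a description, and whether the motifs go with the differences was not tested. The motifs do not overlap each other, and a match of letters is not evidence of binding. The promoters below are those of Arhgap11a, the called gene, and of 3 division genes picked because they hold both elements too, which most members of the list do not. Capitals mark CCAAT and the CHR on either strand, and the Mki67 stretch stops where another annotated transcript begins.
Arhgap11a promoter, chr2:113848662-113848911, strand -: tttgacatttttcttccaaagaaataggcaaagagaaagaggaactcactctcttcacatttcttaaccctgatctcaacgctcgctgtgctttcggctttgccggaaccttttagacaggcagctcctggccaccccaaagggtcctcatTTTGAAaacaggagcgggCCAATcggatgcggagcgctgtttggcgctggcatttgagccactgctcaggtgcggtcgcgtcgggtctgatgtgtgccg
Mki67 promoter, chr7:135716451-135716629, strand -: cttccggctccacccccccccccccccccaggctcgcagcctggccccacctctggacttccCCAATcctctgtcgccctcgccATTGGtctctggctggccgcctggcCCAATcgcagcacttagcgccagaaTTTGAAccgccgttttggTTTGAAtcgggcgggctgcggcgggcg
Depdc1a promoter, chr3:159495183-159495432, strand +: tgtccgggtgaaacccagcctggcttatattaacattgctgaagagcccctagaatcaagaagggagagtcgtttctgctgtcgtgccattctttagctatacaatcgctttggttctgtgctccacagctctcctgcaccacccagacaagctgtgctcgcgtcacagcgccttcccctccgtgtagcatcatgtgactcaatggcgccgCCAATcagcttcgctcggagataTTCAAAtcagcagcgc
Top2a promoter, chr11:99024190-99024439, strand -: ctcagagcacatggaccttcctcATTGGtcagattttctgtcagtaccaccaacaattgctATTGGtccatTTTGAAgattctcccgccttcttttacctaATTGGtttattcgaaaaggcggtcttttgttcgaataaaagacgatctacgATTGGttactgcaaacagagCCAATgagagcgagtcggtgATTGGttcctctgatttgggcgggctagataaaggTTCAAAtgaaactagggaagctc
In Arhgap11a, both motifs are in the forward direction with the CHR first, whereas in Depdc1a the CCAAT box comes first and the CHR is reversed. Of these 4 genes Arhgap11a alone passed the test after adjustment, and the other 3 had differences of the same sign.

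Genes of mitochondrial respiration were lower at 16 weeks by small amounts. All 29 tested genes of oxidative phosphorylation had a negative difference (-0.60 to -0.03, median -0.29), 17 of them at an unadjusted p under 0.05 (4.22% of all genes were lower by that rule), and 9 did not overlap between the ages (2.71% of all genes). None passed after adjustment. Ndufs3, a core subunit of complex I, measured 10.99, 10.69, 10.77 and 10.98 at 8 weeks and 10.53, 10.50, 10.62 and 10.37 at 16 weeks (-0.35 ± 0.11, limma, adjusted p = 0.364). Sdhb, the iron-sulfur subunit of complex II, measured 12.83, 12.64, 12.65 and 12.89, then 12.55, 12.46, 12.51 and 12.08 (-0.35 ± 0.12, limma, adjusted p = 0.409). Both genes were lower in every 16-week array than in any 8-week array. In wild type the median was -0.06 and no member had an unadjusted p under 0.05. Between genotypes the median difference was -0.24, with 1 of 29 members lower at an unadjusted p under 0.05 (2.66% of all genes). Without wild-type 16-week replicate 2 that count was 10 of 29, all lower, and the wild-type median was 0.06. It was 0 of 29 without ob/ob 16-week replicate 4 and 0 of 29 without wild-type 8-week replicate 3. Without the latter array, 27 of 29 members were negative in wild type and 3 were lower at an unadjusted p under 0.05 (3.04% of all genes). The ob/ob count depended on single arrays: it was 5 of 29 without 16-week replicate 4, 6 without 8-week replicate 1 or 8-week replicate 4, 8 without 16-week replicate 1, and 22 without 16-week replicate 2, while at least 28 of 29 members stayed negative in each of the 8 fits.

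Cholesterol synthesis genes were also mostly on the lower side at 16 weeks. Of 24 genes of lipid and sterol synthesis, 10 had an unadjusted p under 0.05, all lower (4.22% of all genes), with a median of -0.33 against 0.08 in wild type, and none passed after adjustment. Nsdhl, a sterol dehydrogenase, measured 11.34, 11.10, 11.25 and 11.23 at 8 weeks and 10.30, 11.14, 10.78 and 10.18 at 16 weeks (-0.63 ± 0.22, limma, adjusted p = 0.43). Cyp51, the lanosterol demethylase, measured 9.18, 9.23, 8.94 and 9.14, then 8.50, 9.10, 8.08 and 8.51 (-0.58 ± 0.21, limma, adjusted p = 0.478). In both genes 16-week replicate 2 remained at the 8-week level. The fatty acid desaturase Scd1, a member of the same list, had the opposite sign in both genotypes (0.77 ± 0.40 in ob/ob and 1.00 ± 0.40 in wild type). Between genotypes 7 of 24 members had an unadjusted p under 0.05, all lower (2.66% of all genes), and none passed after adjustment. That count was 4 of 24 without ob/ob 16-week replicate 4 and 2 of 24 without wild-type 8-week replicate 3. The ob/ob count was 2 of 24 without 16-week replicate 4, 5 without 16-week replicate 3, 6 without 16-week replicate 1, and 14 without 16-week replicate 2.

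**Figure D2:**
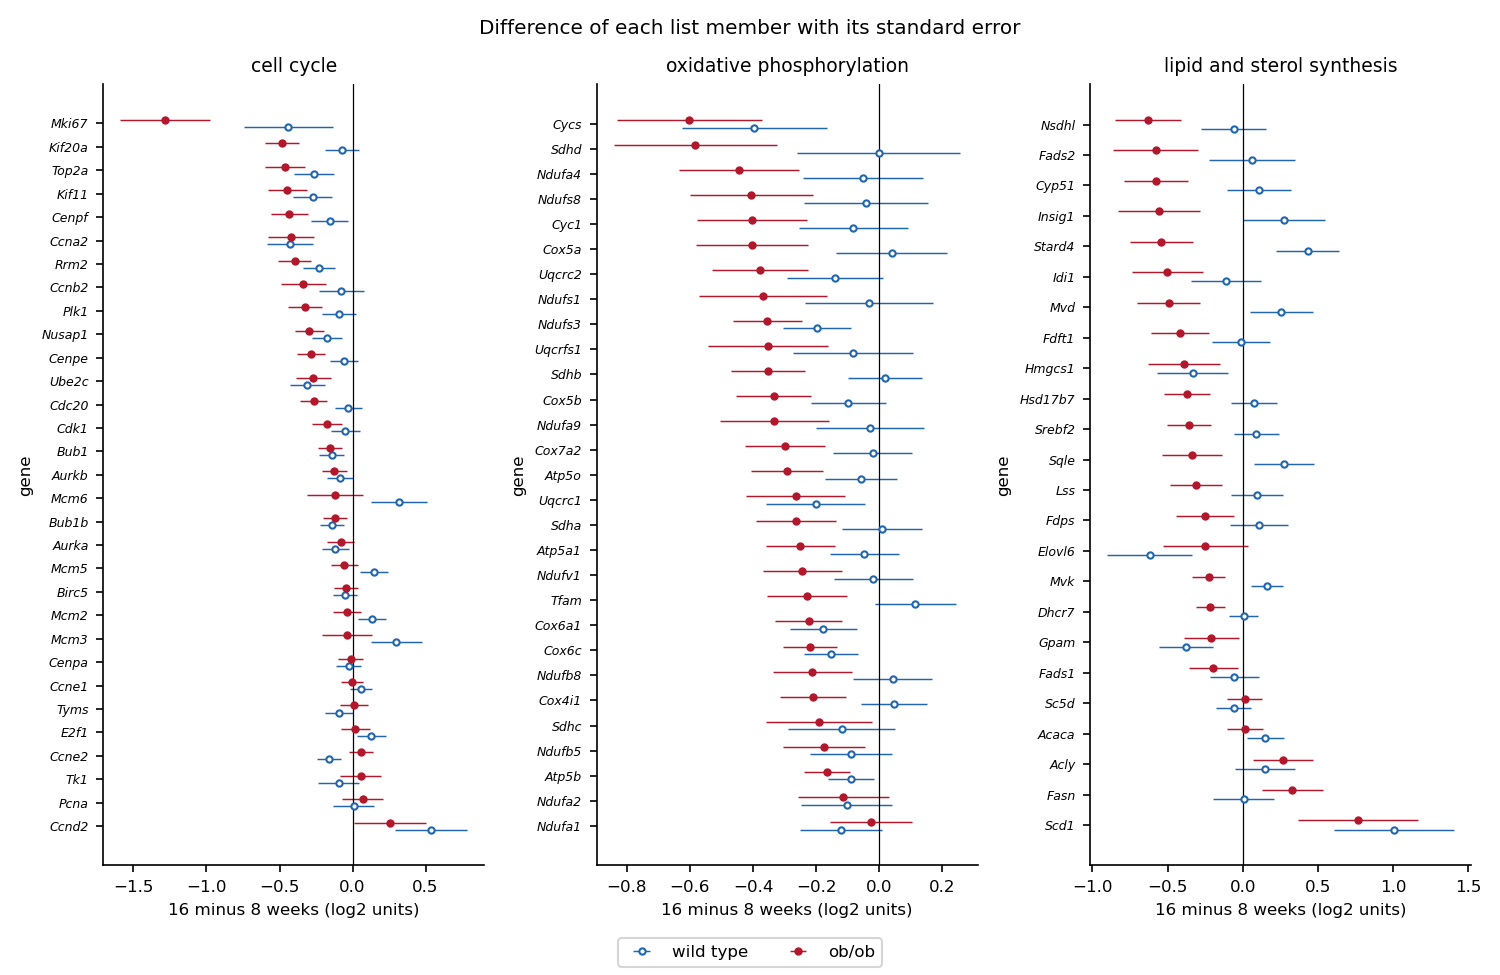
Difference between 16 and 8 weeks in log2 units (horizontal axis) for each tested gene (vertical axis) of 3 lists, with bars of 1 standard error, in ob/ob (filled) and wild type (open). In ob/ob the mitotic genes at the top of the cell cycle panel and all 29 oxidative phosphorylation genes lie below 0, while Scd1 stands above 0 in both genotypes.

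Transcripts of the proximal tubule, where most filtered solute is recovered and which depends on mitochondria, had a median of -0.21 over 28 tested genes, against 0.07 in wild type. In ob/ob 6 of the 28 had an unadjusted p under 0.05, all lower (4.22% of all genes). Acsm2, a medium-chain acyl-CoA synthetase, measured 17.26, 17.23, 17.10 and 17.28 at 8 weeks and 16.68, 17.08, 16.76 and 16.21 at 16 weeks (-0.53 ± 0.14, limma, adjusted p = 0.27). The glucose carriers Slc5a2 (SGLT2, -0.50 ± 0.16) and Slc2a2 (GLUT2, -0.62 ± 0.24) and the glutathione transferase Gsta2 (-0.91 ± 0.24) had the same sign. Slc34a1 was at -0.18 ± 0.09. The mean of the list per array was 14.9, 14.9, 15.0 and 15.1 at 8 weeks and 14.9, 15.3, 14.8 and 14.4 at 16 weeks, so 16-week replicate 4 was the lowest of the 8. Without that array the list's median was -0.03 and 3 members were lower and 3 higher at an unadjusted p under 0.05. Of 20 genes of gluconeogenesis and sugar transport, 3 were lower (median -0.17), and of 26 oxidative stress genes, 4 were lower (median -0.14), against 4.22% of all genes. Without 16-week replicate 4 the counts were 1 of 20 and 2 of 26.

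Glomerular cell genes had the opposite sign, and the same array stood apart in them. For 28 endothelial genes the median was 0.58, with 10 higher at an unadjusted p under 0.05 (4.28% of all genes). For 31 podocyte genes it was 0.39 with 4 higher, and for 21 mesangial and smooth muscle genes 0.29 with 1 higher and 1 lower (4.22% of all genes were lower). In wild type the 3 medians were 0.17, 0.16 and 0.20 in that order, with 2, 1 and 0 genes higher (3.56% of all genes). There 23, 22 and 18 genes were positive, and 13, 12 and 9 without wild-type 16-week replicate 2. Between genotypes 0 genes of each list were higher at an unadjusted p under 0.05 (2.44% of all genes). In the same order 1, 0 and 1 were lower (2.66% of all genes). Without wild-type 16-week replicate 2, 1, 6 and 0 were higher between genotypes. Per array, the endothelial mean in ob/ob was 9.95, 10.1, 10.4 and 9.85 at 8 weeks and 10.4, 10.4, 10.4 and 11.2 at 16 weeks. The podocyte mean was 10.1, 10.5, 10.4 and 10.1, then 10.7, 10.5, 10.5 and 11.0, and the mesangial mean 9.52, 9.45, 9.70 and 9.36, then 9.54, 9.59, 9.62 and 10.4. In all 3 lists 16-week replicate 4 was the highest of the 8 arrays, and it was the lowest for proximal tubule. Without it the medians were 0.29, 0.24 and 0.07, and 1 endothelial, 1 podocyte and no mesangial gene had an unadjusted p under 0.05. Leaving out any 1 of the 8 arrays gave 1 to 12 endothelial genes higher, the fewest also without 8-week replicate 4, and 0 to 4 podocyte genes, with 0 without 8-week replicate 1. With the podocyte mean as a covariate, a fit added after seeing the data, 3 endothelial genes were higher, 1 was lower and 5 of 21 mesangial genes were positive. The proximal tubule mean as a covariate gave 6 endothelial genes higher and 18 of 21 mesangial genes positive. Whether the makeup of ob/ob 16-week replicate 4 underlies the other differences was not tested.

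Podocyte genes of the slit diaphragm and its regulators did not pass. Nphs1 differed by 0.50 ± 0.56 (95% interval -0.65 to 1.64), the transcription factor Wt1 by 0.71 ± 0.45, and the transcription factor Tcf21 by 0.91 ± 0.40 in ob/ob and by 1.02 ± 0.40 in wild type. The endothelial adhesion receptor Adgrl4 measured 12.42, 12.53, 12.74 and 12.14 at 8 weeks and 13.03, 13.50, 13.06 and 14.27 at 16 weeks (1.01 ± 0.34, limma, adjusted p = 0.419), with no overlap. Ramp2, a co-receptor for adrenomedullin, was at 0.31 ± 0.12. Art3, on the mesangial list, was at 0.54 ± 0.25, its highest value being 8.38 in 16-week replicate 4. Parietal cells of Bowman's capsule gave a median of 0.08 over 15 genes. There 3 were higher (4.28% of all genes), Aldh1a1 among them, and 1 was lower (4.22%), Prom1 (-0.76 ± 0.21).

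**Figure D3:**
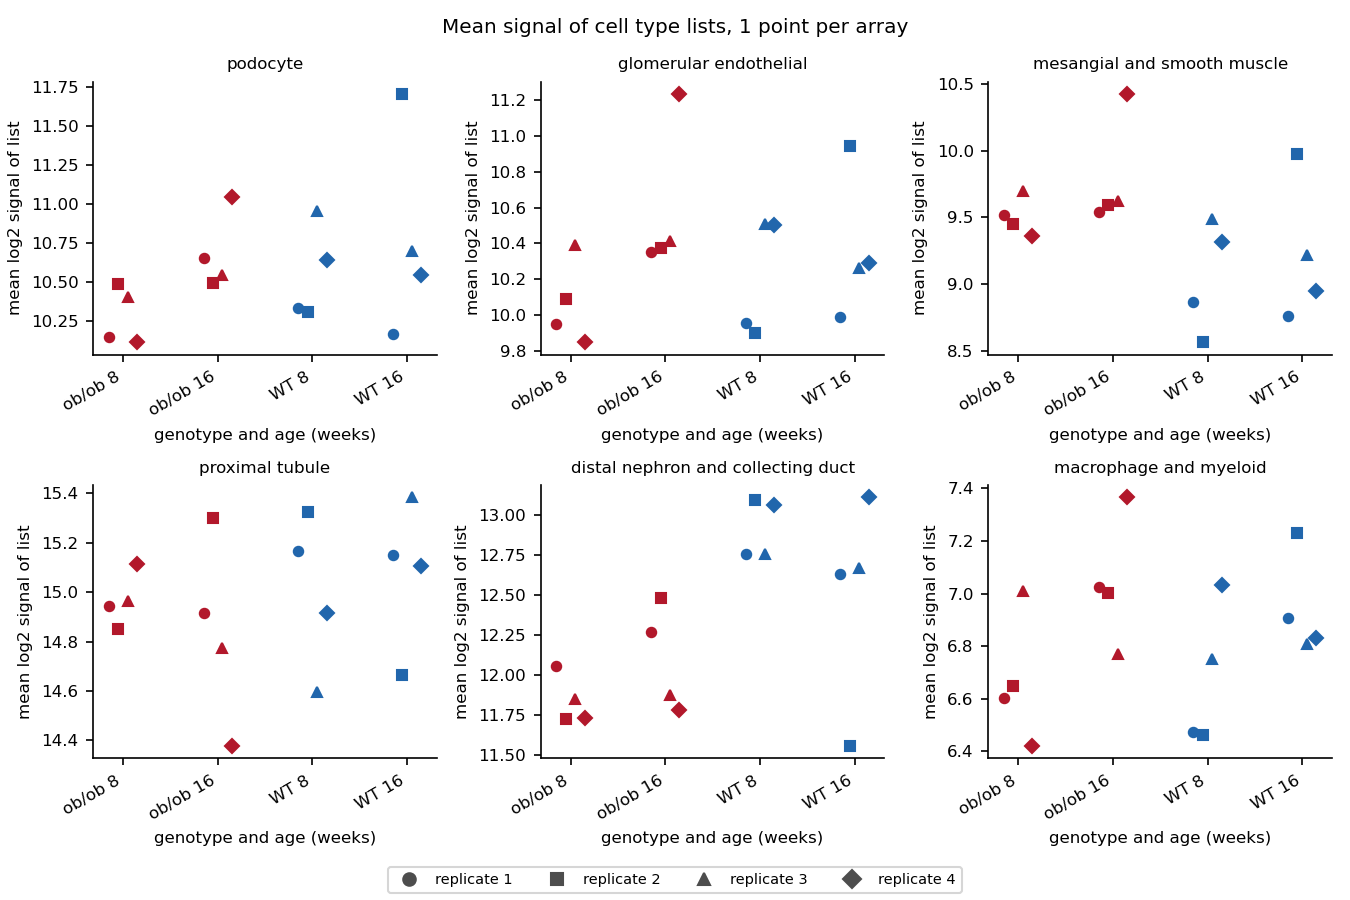
Mean log2 signal of each cell type list (vertical axis) in every array of 4 groups (horizontal axis, genotype and age in weeks), with replicates 1 to 4 as circle, square, triangle and diamond. At 16 weeks in ob/ob, replicate 4 is the highest for podocyte, endothelial and mesangial genes and the lowest for proximal tubule genes.

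Vascular growth factor signalling gave a median of 0.39 over 23 genes in ob/ob and 0.07 in wild type. In ob/ob 9 were higher and 2 lower at an unadjusted p under 0.05 (4.28% and 4.22% of all genes), and none passed after adjustment. In wild type 3 were higher and 1 lower (3.56% and 3.04% of all genes). Between genotypes 0 of 23 were higher and 2 lower (2.44% and 2.66% of all genes). Vegfa, the factor podocytes send to the endothelium, measured 13.11, 13.55, 13.29 and 13.25 at 8 weeks and 13.72, 13.18, 14.10 and 14.62 at 16 weeks (0.60 ± 0.26, limma, adjusted p = 0.548), and the ages overlapped. The receptor Flt4 was at 0.56 ± 0.16 (limma, adjusted p = 0.324). Angpt1, which stabilises capillaries, had the opposite sign: 10.09, 10.04, 9.03 and 10.23 at 8 weeks and 9.33, 9.57, 9.47 and 8.23 at 16 weeks (-0.69 ± 0.26, limma, adjusted p = 0.48). Without 16-week replicate 4 the list had 2 genes higher and a median of 0.24, and without 8-week replicate 4 or 2 it had 3 and 4 higher.

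Of 31 genes of TGF-beta and BMP signalling, the pathway that drives matrix production in diabetic glomeruli, 30 had a positive difference. The median was 0.26, with 7 higher at an unadjusted p under 0.05 (4.28% of all genes) and 8 without overlap between ages (2.68%). In wild type the median was 0.13, with 8 higher and 1 lower (3.56% and 3.04% of all genes). Without wild-type 16-week replicate 2 there were 3 higher and 3 lower. Smad7, the feedback inhibitor of the receptors, measured 7.41, 7.54, 7.47 and 7.43 at 8 weeks and 7.85, 7.69, 7.89 and 7.86 at 16 weeks (0.36 ± 0.08, limma, adjusted p = 0.203). Its wild-type difference was 0.21 ± 0.08. Id1, a BMP target, was at 0.63 ± 0.22 in ob/ob and 0.51 ± 0.22 in wild type. The ligand Tgfb1 measured 7.98, 7.97, 8.52 and 8.07, then 8.30, 8.37, 8.47 and 9.42 (0.50 ± 0.22), and the target Ccn2 was at 1.03 ± 0.56. In ob/ob, 4 genes were higher without 16-week replicate 4 (27 of 31 positive), 4 without 8-week replicate 4 and 13 without 16-week replicate 1. Between genotypes 3 of the 31 had an unadjusted p under 0.05, all higher (2.44% of all genes).

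Basement membrane genes had no common direction, with a median of -0.03 over 19 genes. Of these, 2 were higher and 1 lower (4.28% and 4.22% of all genes), or 1 higher and 3 lower without 16-week replicate 4. Col4a1, a chain of type IV collagen, measured 10.43, 10.25, 10.85 and 10.56 at 8 weeks and 9.29, 10.01, 10.29 and 11.81 at 16 weeks (-0.17 ± 0.33), so 3 older arrays were lower and replicate 4 was higher than any younger one. Col18a1 was at 0.45 ± 0.14 and the linker Nid2 at -0.43 ± 0.16. Of 35 fibrosis genes, 25 were positive (median 0.14), with 3 higher (4.28% of all genes) and none lower at an unadjusted p under 0.05. In wild type 7 were higher (3.56% of all genes, median 0.10). Without 16-week replicate 4 the ob/ob median was 0.03 with 1 higher and 1 lower. Fn1, fibronectin, was at 0.32 ± 0.34 (95% interval -0.38 to 1.02).

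Inflammatory and complement genes were on the higher side, and no difference between genotypes passed for any of them. Of 24 genes of inflammatory cytokines and adhesion, 23 were positive and 12 higher at an unadjusted p under 0.05 (4.28% of all genes). The median was 0.38, against 0.11 in wild type with 4 higher (3.56% of all genes). Vcam1, the adhesion molecule that captures leukocytes, measured 7.82, 7.59, 7.61 and 7.77 at 8 weeks and 9.21, 9.28, 7.99 and 8.83 at 16 weeks. The ages did not overlap (1.13 ± 0.25, limma, adjusted p = 0.195), and wild type was at 0.84 ± 0.25. Il34, a ligand of the macrophage growth factor receptor, measured 6.66, 6.65, 6.70 and 6.54, then 7.11, 7.06, 6.86 and 7.32 (0.45 ± 0.12, limma, adjusted p = 0.283). Leaving out any 1 array gave 7 to 13 of 24 higher, the fewest without 8-week replicate 1. At 8 weeks 9 of the 24 had ob/ob means at or under 6.35, the highest intron control median. Between genotypes 2 of 24 were higher at an unadjusted p under 0.05 (2.44% of all genes), and 0 without ob/ob 16-week replicate 4.

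All 18 complement genes were positive in ob/ob, with a median of 0.32 against 0.09 and 2 higher in wild type (3.56% of all genes). In ob/ob 4 were higher (4.28% of all genes) and 5 did not overlap between ages (2.68%). Without ob/ob 16-week replicate 4, 17 were positive and 4 higher. At 8 weeks 7 of the 18 had ob/ob means at or under 6.35, among them 2 of the 5 without overlap. The inhibitor Serping1 was at 0.87 ± 0.31 and the terminal component C7 at 1.06 ± 0.42. All 25 macrophage and myeloid genes were positive as well, with a median of 0.25 and 4 higher (4.28% of all genes). Wild type had a median of 0.20 and 6 higher (3.56% of all genes). Without ob/ob replicate 4 of either age, 23 of the 25 were positive in ob/ob. The signal was low: in ob/ob 14 of the 25 at 8 weeks and 12 at 16 weeks had means at or under 6.35, the highest intron control median. H2-Aa, an antigen-presenting chain, was at 0.68 ± 0.22, and Ly6c2 at 1.31 ± 0.42 with 16-week replicate 4 the highest at 16.45. Over 25 interferon response genes the median was 0.20 with 6 higher (4.28% of all genes), among them Bst2 (0.88 ± 0.33) and Irf1 (0.39 ± 0.14). None was higher without 16-week replicate 4, and 2 were without 8-week replicate 2 or 4. The wild-type median was 0.18, with 3 higher (3.56% of all genes) and 24 of 25 positive, against 23 of 25 positive in ob/ob. At 8 weeks 8 of the 25 had ob/ob means at or under 6.35. Lymphocyte genes had a median of 0.04 over 15 genes in ob/ob, with 1 higher, and 0.18 in wild type, with 3 higher. All 15 had ob/ob means at or under 6.35 at 8 weeks.

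Kidney injury markers had a median of 0.32 over 18 genes in ob/ob with 4 higher (4.28% of all genes), and the count was 4 without 16-week replicate 4. In wild type the median was 0.11, with 4 higher and 1 lower (3.56% and 3.04% of all genes). Between genotypes 4 were higher and 2 lower (2.44% and 2.66%). At 8 weeks 8 of the 18 had ob/ob means at or under 6.35, the highest intron control median. Havcr1 (KIM-1), which appears on damaged proximal tubule, measured 5.85, 5.83, 5.86 and 5.81 at 8 weeks and 6.28, 7.02, 5.89 and 6.86 at 16 weeks in ob/ob (0.67 ± 0.39, limma, adjusted p = 0.662). The ages did not overlap, but the spread at 16 weeks was wide and the younger arrays sat at the level of the intron controls. Lcn2 (NGAL) was at 0.78 ± 0.28 in ob/ob and -0.14 ± 0.28 in wild type. Of 25 renin-angiotensin and vasoactive genes, 3 were higher in ob/ob (4.28% of all genes, median 0.13), or 1 without 16-week replicate 4 and 6 without 16-week replicate 3. Agt, angiotensinogen, measured 9.49, 9.75, 9.95 and 10.29, then 10.09, 10.89, 10.38 and 11.78 (0.91 ± 0.36, limma, adjusted p = 0.492), and Edn3 was at 0.35 ± 0.13.

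Among all genes, the shares at an unadjusted p under 0.05 were 4.28% higher and 4.22% lower in ob/ob, and 3.56% and 3.04% in wild type. Between genotypes they were 2.44% higher and 2.66% lower. For genes of the unfolded protein response the medians had opposite signs in the genotypes. Of 26 genes, 24 were positive in ob/ob (median 0.17, 2 higher), among them the chaperones Dnajb9 (0.70 ± 0.26) and Hsp90b1 (0.44 ± 0.21). In wild type the median was -0.12, and between genotypes 5 of 26 were higher at an unadjusted p under 0.05, or 2 without ob/ob 16-week replicate 4 or wild-type 8-week replicate 3. The 16 heat shock genes had a median of 0.015 in ob/ob (-0.005 without 8-week replicate 3), with 2 lower, the mitochondrial chaperonin Hspd1 (-0.44 ± 0.15) and its partner Hspe1. In wild type their median was -0.53 with 9 lower, and between genotypes 8 of 16 were higher. Wild-type 8-week replicate 3 stood above its group in the mean of that list (12.07 against 11.01 to 11.41), and without it the wild-type median was -0.35 with 6 lower, and 4 of 16 were higher between genotypes. Distal nephron and collecting duct genes gave 0.22 over 26 genes in ob/ob, with 1 higher, the calcium channel Trpv5 (1.02 ± 0.47), and 1 lower, Fxyd2 (-0.39 ± 0.10). In wild type their median was -0.39, and between genotypes 9 were higher and 1 lower. Without wild-type 16-week replicate 2 the wild-type distal nephron median was -0.01, and the between-genotype count was 1 higher and 1 lower of 26. Umod, made in the thick ascending limb, was at 0.20 ± 0.20.

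**Figure D4:**
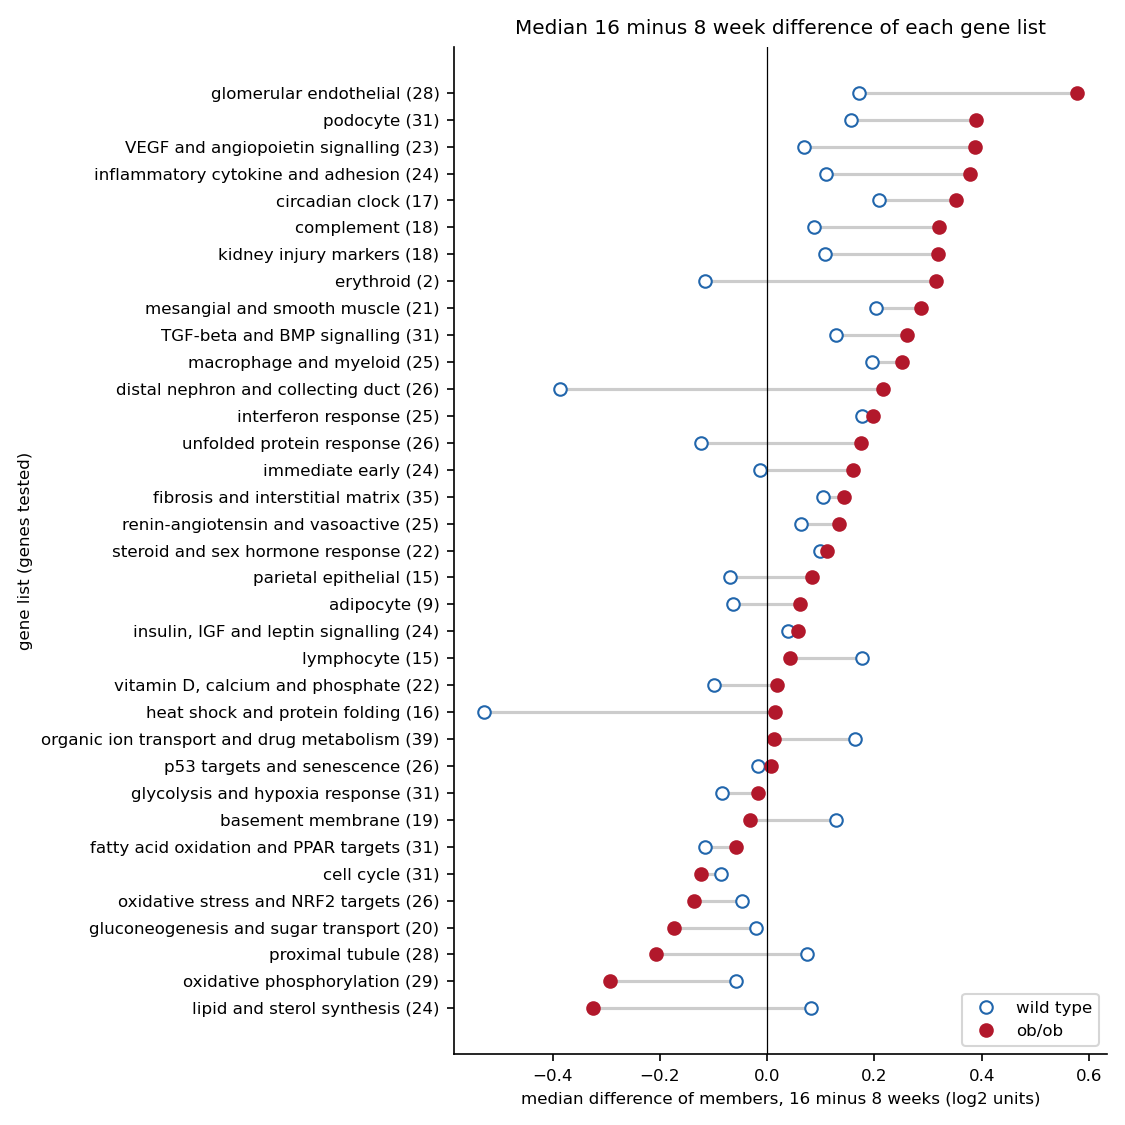
Median difference between 16 and 8 weeks in log2 units (horizontal axis) of each gene list (vertical axis, number of genes tested in brackets), in ob/ob (filled) and wild type (open). In ob/ob the endothelial list has the highest median at 0.58 and lipid and sterol synthesis the lowest at -0.33, while in wild type heat shock has the lowest at -0.53.

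Clock genes, whose transcripts cycle through the day, differed widely between arrays of the same group. The labels used here give no time of day for any sample. In ob/ob at 16 weeks Arntl, the activator of the clock, measured 9.92, 7.20, 10.88 and 10.62, and its opposite-phase target Dbp 7.63, 9.99, 6.13 and 6.22, the 2 genes being chosen after their values were seen. At 8 weeks Arntl was at 10.71, 10.79, 9.80 and 10.82 and Dbp at 6.46, 6.22, 7.26 and 6.27. Dbp was thus highest in replicate 2 at 16 weeks, followed by replicate 1 at 16 weeks and replicate 3 at 8 weeks, while the other 5 lay at 6.13 to 6.46. Per2 measured 9.61, 8.96, 7.61 and 7.34 at 16 weeks and 7.02, 7.06, 7.25 and 7.36 at 8 weeks, highest in replicates 1 and 2 at 16 weeks (1.20 ± 0.47, limma, adjusted p = 0.492). Bhlhe40, a repressor of the clock, measured 8.21, 7.68, 7.73 and 8.03 at 8 weeks and 10.48, 9.69, 8.67 and 8.38 at 16 weeks (1.39 ± 0.34, limma, adjusted p = 0.247).

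In wild type at 16 weeks, Arntl measured 6.90, 11.23, 6.62 and 6.58, so replicate 2 stood apart from its group. Of 17 clock genes, 3 were higher in ob/ob at an unadjusted p under 0.05 (4.28% of all genes, median 0.35). In wild type 6 were higher and 6 lower (3.56% and 3.04%), and between genotypes 6 were higher and 3 lower (2.44% and 2.66%). Nr1d1 (REV-ERB alpha) gave the largest size among the 10 smallest p-values of the test between genotypes: -0.81 ± 0.79 in ob/ob, 3.84 ± 0.79 in wild type, and -4.65 ± 1.12 between them (limma, adjusted p = 0.687). With the level of Arntl as a covariate, 5 genes passed in ob/ob and none in wild type, and Apob, Adgrg2 and Arhgap11a were among the 5 (limma, adjusted p = 0.0455). Whether other differences between the ages follow the clock was not tested.

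**Figure D5:**
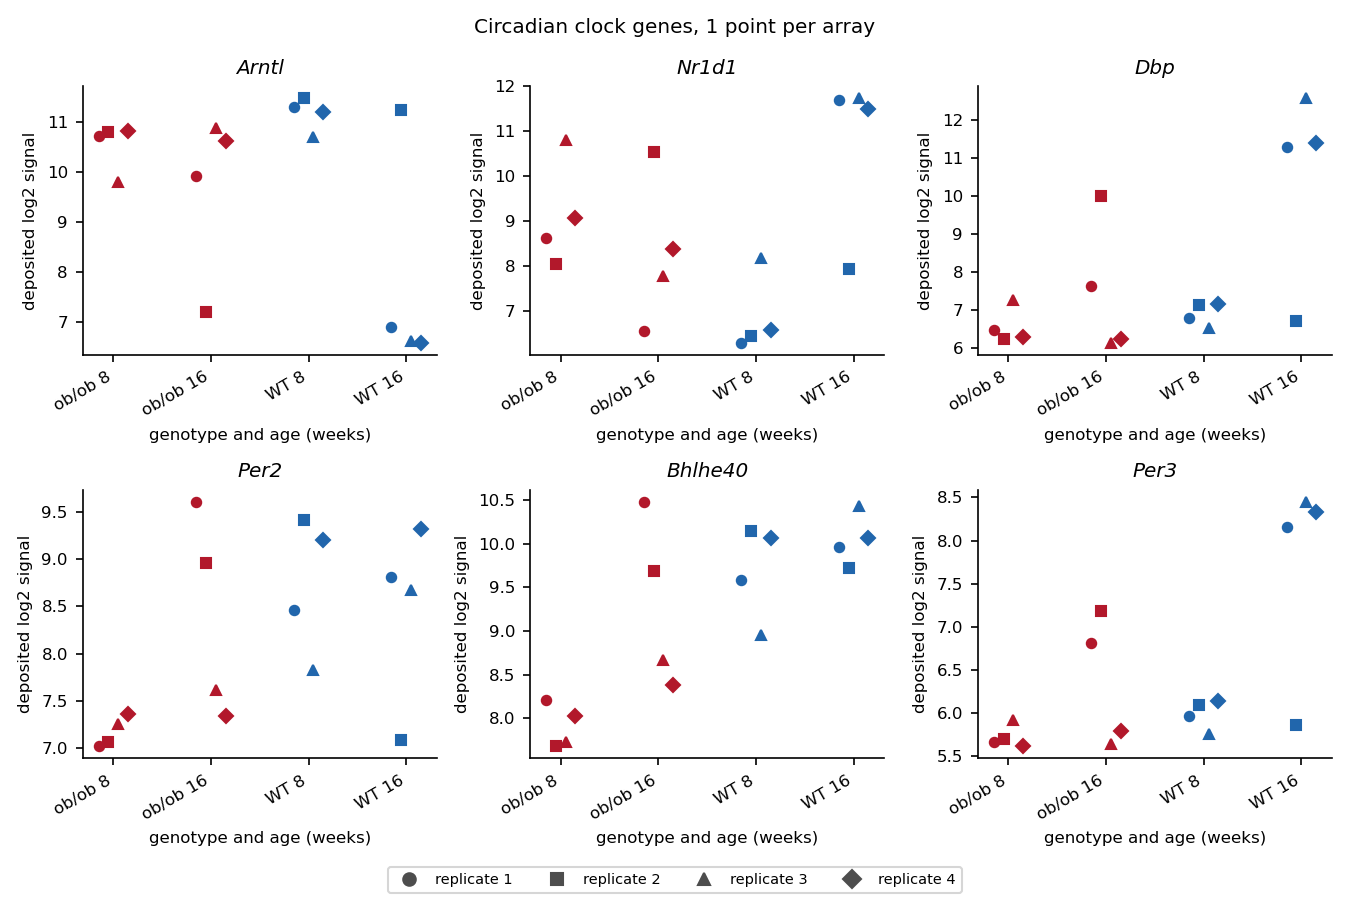
Deposited log2 signal (vertical axis) of 6 clock genes in every array of 4 groups (horizontal axis, genotype and age in weeks), with replicates 1 to 4 as circle, square, triangle and diamond. Replicate 2 of wild type at 16 weeks lies with the 8-week arrays for Arntl, and replicates 1 and 2 of ob/ob at 16 weeks lie above the others for Per2, Bhlhe40 and Per3.

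The remaining genes with the smallest p between genotypes included some with the larger difference in wild type and some with the larger in ob/ob. Akr1c20, an aldo-keto reductase, was at -0.29 ± 0.25 in ob/ob and rose by 1.52 ± 0.25 in wild type, and the zinc finger gene Zfp691 was at 0.06 ± 0.17 against a fall of 1.13 ± 0.17 in wild type. Rtp3 differed in opposite directions (0.63 ± 0.17 and -0.44 ± 0.17), as did Gpat3, an enzyme of triglyceride synthesis (-0.34 ± 0.16 and 0.62 ± 0.16), Gipc1 (-0.24 ± 0.09 and 0.29 ± 0.09) and Nme4 (-0.47 ± 0.11 and 0.21 ± 0.11). Cubn, the endocytic receptor for filtered albumin, measured 15.08, 15.29, 15.31 and 15.32 at 8 weeks and 15.47, 15.46, 14.86 and 13.93 at 16 weeks in ob/ob (-0.32 ± 0.20), against 0.83 ± 0.20 in wild type. Its difference between genotypes was -1.15 ± 0.29, and all of these had an adjusted p of 0.298 or more (limma). Cdkn1a (p21), an inhibitor of the cell cycle, measured 11.67, 11.59, 11.84 and 12.05 at 8 weeks and 11.26, 10.85, 11.98 and 13.16 at 16 weeks in ob/ob (0.03 ± 0.55), while it fell by 2.96 ± 0.55 in wild type (limma, adjusted p = 0.0431 there). The changes differed by 2.99 ± 0.78 without passing (limma, adjusted p = 0.687).

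Some genes varied so much within an age that the comparison has little precision. The androgen-responsive tubule gene Kap measured 11.94, 11.59, 13.38 and 13.40 at 8 weeks and 12.86, 15.96, 10.44 and 15.80 at 16 weeks (1.19 ± 0.88). The vitamin D enzymes Cyp27b1, which activates the hormone, and Cyp24a1, which degrades it, differed by -0.25 ± 0.80 and -0.45 ± 0.83. In 16-week replicate 2 they measured 14.04 and 12.27, and in 16-week replicate 4 they measured 8.26 and 14.27. Lepr, the leptin receptor, was at 0.43 ± 0.18 in ob/ob and 0.38 ± 0.18 in wild type. Lep itself is expressed in fat, and its signal here was 5.01 to 5.50, under the intron controls.

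Of 24 immediate early genes, 22 were positive (median 0.16), with 4 higher (4.28% of all genes) and 3 without overlap (2.68%), against a median of -0.01 in wild type with none at an unadjusted p under 0.05. Among the 4 were Fos, which measured 5.30, 5.39, 5.44 and 5.11, then 5.52, 6.68, 6.28 and 5.60 (0.71 ± 0.17, limma, adjusted p = 0.238), and Btg2 (0.62 ± 0.18). The Fos values at 8 weeks lay under the intron controls. At 8 weeks 10 of the 24 had ob/ob means at or under 6.35, the highest intron control median, among them 2 of the 3 without overlap. For the ob/ob counts that follow, 4.28% of all genes were higher and 4.22% lower at an unadjusted p under 0.05. Of 31 fatty acid oxidation genes, 3 were higher and 3 lower (median -0.06). Cyp4a12a, an omega-hydroxylase, was at 1.10 ± 0.34 against -0.69 ± 0.34 in wild type, and Pparg at 0.52 ± 0.20. Of 39 genes of organic ion transport and drug metabolism, 4 were higher and 2 lower (median 0.01), among them the efflux pump Abcb1a (0.78 ± 0.23). Glycolysis and hypoxia genes had 2 higher and 3 lower of 31 (median -0.02), p53 targets 1 higher of 26 (0.01), vitamin D, calcium and phosphate genes 4 higher and 2 lower of 22 (0.02), or 1 higher without 16-week replicate 4, and steroid and sex hormone response genes 2 lower of 22 (0.11). Insulin, IGF and leptin signalling had 2 higher of 24 (0.06). Adipocyte genes (9 tested, 0.06) and erythroid genes (2 tested, 0.32 against -0.12 in wild type) had none at an unadjusted p under 0.05.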

How the data were processed

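RNA of glomeruli isolated by sieving was labelled with biotin and hybridised to 1-colour mouse transcriptome arrays, per the labels' protocols. The authors deposited log2 values, made by RMA in Affymetrix Expression Console 1.4 per the submitters' processing notes, and these were used without further scaling. Values ran from 2.45 to 19.93; what lifted some above 16, the log2 ceiling of a 16-bit scanner, is not given in the sources used here. Arrays give no read depth, and their number limits the precision.

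Of 72688 probe sets, 30604 carry 1 gene symbol, 2146 several and 33206 clusters none; 22818 symbols were checked through gene identifiers and 827 changed. Where several probe sets named a gene (355 genes), that of the highest mean was kept. Testing required log2 5 in 3 or more arrays, which left 24099 genes; 398 of these have values identical to those of another gene. A model with a mean for each group was fitted by limma 3.58.1 (R 4.3.3) over the 30 arrays (residual df 22, prior df 3.16), with Benjamini-Hochberg adjustment within each comparison. The procedure was tested on simulated data. Array measures were compared by exact permutation tests.

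The comparison, the 35 gene lists and the rule for naming genes were chosen with earlier results of these data known. The rule took, among genes past the threshold, up to 15 with the largest differences in each direction, filled with the smallest p, up to 4 members per list past the threshold or otherwise the 2 with the smallest p, the 10 smallest p between genotypes, and 21 fixed genes, leaving out predicted and large-family genes; the text names fewer. Lists were described by counts and medians, with no test of a list. Promoters are RefSeq sequences of GRCm38.p6, with 14331 tested genes matched by symbol.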

Additional observations from a re-analysis of the deposited data

Results flagged for a closer look

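The highest or lowest array of a group was compared with the next by Dixon's ratio in 230 sets of 4 ob/ob arrays, where chance flags about 1 in 20. It marked 23. At 16 weeks, replicate 4 stood high for the endothelial list (array mean 11.24), the mesangial and smooth muscle list (10.42), Tgfb1 (9.42), Irf1 (7.63), Pparg (7.95) and Art3 (8.38), and low for Slc34a1 (18.79). Also at 16 weeks, replicate 2 stood high for Aldh1a1 (11.95) and for the vitamin D, calcium and phosphate list (11.36), and replicate 1 for Gsta4 (11.52) and the lymphocyte list (5.62).

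At 8 weeks, replicate 3 stood high for the inflammatory cytokine and adhesion list (7.26), the interferon response list (7.64), Serping1 (11.34), H2-Aa (6.68), Bst2 (9.97) and Art3 (7.30), and low for Oxct1 (15.95), Angpt1 (9.03), Arntl (9.80) and Prom1 (12.36). Replicate 1 at 8 weeks stood low for Cubn (15.08) and replicate 4 for Edn3 (6.01). Without 8-week replicate 3, macrophage and myeloid genes had 7 of 25 members higher at an unadjusted p under 0.05 in place of 4, and their median was 0.37 in place of 0.25.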

How the results depend on the processing

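The comparison in ob/ob called 3 genes. It called 1 gene with only the 8 arrays compared, with an absolute difference of at least 1, and with the replicate block, Apob each time, 5 with the Arntl level and 5 with the podocyte mean as a covariate (both added after seeing the data), 6 after cyclic loess scaling, 7 without the ob/ob 24-week arrays, 16 with the proximal tubule mean and 27 with the exon to intron separation as a covariate, and 23 with array quality weights. Leaving out 1 array gave 0 to 3. It stayed at 3 with no filter, a log2 6 filter, limma's trend and robust options, averaged probe sets and every probe set on its own.

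In wild type, where 8 genes passed, the counts were 0 with only the arrays compared, 0 with the Arntl level, 15 with a log2 6 filter, 22 after loess, 45 with the proximal tubule mean, 51 with the separation, 55 with the podocyte mean and 1633 with array quality weights. The replicate block gave 12. Leaving out 1 array gave 0 to 121, the latter without 16-week replicate 2. Between genotypes, array quality weights called 160 genes, the proximal tubule mean 1, and leaving out 1 array 0 to 24, the latter without wild-type 16-week replicate 2; the other alternatives called 0. The cause of these shifts was not tested.

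Same-numbered ob/ob arrays of the 2 ages correlated at 0.21, -0.211, -0.232 and -0.128 in their deviations from the group mean. Differently numbered ob/ob arrays of the 2 ages ran from -0.196 to 0.274. So few values show no pairing by number but cannot settle whether the numbers pair the samples. Among genes named, direction reversed for Nphs1 with the podocyte mean (-0.23), for Cdkn1a, at 0.03, with the proximal tubule mean (-0.16) and the podocyte mean (-0.49), and for Cyp27b1 with the same covariates (0.11 and 0.34). Leaving out 1 array at a time gave -0.42 to 0.35 for Cdkn1a, -0.66 to 0.18 for Col4a1, -1.11 to 0.81 for Cyp27b1, -1.17 to 0.18 for Cyp24a1 and -0.50 to 0.014 for Cubn. Signal near the intron controls limits Adgrg2, Depdc1a, Kif20a, Havcr1, Fos, most cell cycle genes, the lymphocyte genes and part of the macrophage and myeloid genes. It also limits part of the interferon response, immediate early, inflammatory, complement, kidney injury and renin-angiotensin genes.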
